A study of Homo sapiens with 14 samples.

Results

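SLC43A1 and 6 related transporter genes were followed guide by guide through 4 pooled CRISPR screens. The 7 genes (SLC43A1, SLC43A2, SLC43A3, SLC7A5, SLC7A8, SLC3A2 and SLC16A10) were chosen by name. SLC43A1 was taken because its knockout guides were enriched under oxaliplatin in these same libraries, and the others because they are its paralogues or carry overlapping amino acids. They are 7 of the 19114 genes of the knockout library and of the 18886 of the activation library, and made up 28 of the 77441 guides of each knockout screen and 21 of the 56762 guides of each activation screen, with 4 knockout and 3 activation guides per gene. For SLC43A1 the treated knockout values therefore describe the choice and test nothing.

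RKO and SW620, both established human colorectal cancer lines, carried either Cas9 with the Brunello sgRNA library, which disrupts genes, or dCas9-VP64 with the Calabrese library, an activator that guides bring to promoters to increase expression. Cells of each of the 4 screens were sampled at day 0 and after 20 days without drug or with oxaliplatin, a platinum compound that crosslinks DNA. The dose was 1.9 µM in RKO and 0.38 or 0.5 µM in SW620, so drug responses of the lines stand side by side at unequal doses. Each of the 14 conditions was 1 library, all cells of a library were 1 pool, and no value could be set against a spread between cultures, so none carries a p-value. Guides of 1 gene share a target and a library and are not replicates of a condition. Guide counts come from genomic DNA and carry no expression, which left marker genes of the cell type unmeasured here.

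Large neutral amino acids (leucine, isoleucine, valine, phenylalanine, tyrosine, tryptophan, methionine and histidine) cross the plasma membrane on a small set of carriers. SLC7A5 (LAT1) and SLC7A8 (LAT2) are light chains that exchange one amino acid for another and reach the membrane as heterodimers with SLC3A2, the CD98 heavy chain. SLC43A1 (LAT3) and SLC43A2 (LAT4) need no heavy chain and let their substrates diffuse down the gradient without sodium. SLC43A3 belongs to the same family but moves purine nucleobases, and SLC16A10 (TAT1) is a uniporter of aromatic amino acids.

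Activation guides act near transcription start sites, so the 250 bases before the start are shown for the genes all of whose activation guides had 0 counts in the treated RKO library, SLC43A1 and SLC16A10. Both windows are from RefSeq (GRCh38.p14), written 5′ to 3′ on the gene's strand, and capitals mark the GG of each NGG on the printed strand (40 in SLC43A1, 37 in SLC16A10), the motif next to which S. pyogenes Cas9 binds. Motifs on the other strand are not marked. The SLC43A1 window is chr11:57515703-57515952 on the minus strand, the more upstream of its starts in the table, and the SLC16A10 window is chr6:111087253-111087502 on the plus strand.
SLC43A1: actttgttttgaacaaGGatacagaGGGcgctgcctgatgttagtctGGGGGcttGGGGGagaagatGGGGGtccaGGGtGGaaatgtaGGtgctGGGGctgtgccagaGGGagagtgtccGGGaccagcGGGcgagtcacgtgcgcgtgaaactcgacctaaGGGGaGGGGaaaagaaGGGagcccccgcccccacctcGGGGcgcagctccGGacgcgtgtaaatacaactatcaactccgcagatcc
SLC16A10: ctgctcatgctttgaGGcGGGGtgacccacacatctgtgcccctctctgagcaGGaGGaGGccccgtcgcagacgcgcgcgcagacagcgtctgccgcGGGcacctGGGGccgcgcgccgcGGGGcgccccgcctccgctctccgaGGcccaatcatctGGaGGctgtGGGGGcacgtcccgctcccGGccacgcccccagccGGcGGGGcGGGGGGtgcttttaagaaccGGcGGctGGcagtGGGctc
Counting both strands and overlapping matches, NGG occurs 57 times in the SLC43A1 window and 68 times in the SLC16A10 window. The median over 35116 windows of the same length was 48, and 99.99% of them held the motif. A window was found for 6 of the 7 genes. Guide positions were not used here.

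Depth set how much each library can show. Totals ran from 3647823 to 69526489 counts, and the median guide had between 146 and 774 counts in the knockout libraries. In the activation libraries the median guide had 987 counts at most, 62 in untreated SW620 and 21 in treated RKO, where 14.3% of guides had none. The log2 fold of a gene is the median over its guides after scaling each library by median-ratio size factors, with 5 added to each scaled count. A gene was called when that median was at least 2-fold in either direction (1 on the log2 scale).

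Knockout guides of SLC43A1 had the largest median fold of all genes in each treated comparison, and the guides stayed together. In RKO its guides 1 to 4 had 531, 780, 224 and 488 counts without drug and 1303803, 2080902, 550178 and 1743793 with it. In SW620 they had 1196, 1576, 467 and 1203 counts without drug, 205495, 458835, 139502 and 430644 at 0.38 µM, and 584589, 1266696, 272311 and 1140864 at 0.5 µM. Every treated count was above every untreated one. Raw counts of all guides lay apart in this direction in 0.304% of genes in RKO, 1.14% at 0.38 µM and 0.173% at 0.5 µM, and SLC43A2 was among them at both SW620 doses. The log2 medians were 12.66 (guides from 12.57 to 13.13) in RKO, 8.26 (7.48 to 8.54) at 0.38 µM and 11.09 (10.61 to 11.57) at 0.5 µM.

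The 4 guides differed little among themselves in the treated libraries on which the gene was chosen. Guide 4 had the largest fold in all 3 treated libraries, 9108 in RKO, 375 at 0.38 µM and 3053 at 0.5 µM, with 95% counting intervals of 8334 to 9973, 354 to 397 and 2885 to 3233. Guide 1 had a fold of 6258 (5748 to 6827) in RKO, 180 (170 to 190) at 0.38 µM and 1573 (1487 to 1667) at 0.5 µM. The guides spanned 0.56 on the log2 scale in RKO, a range narrower than in all but 1.16% of the 17130 genes with 4 guides kept, and the median gene spanned 2.46. At 0.5 µM the range was 0.96, with 0.863% of 18531 genes narrower and a median of 4.90. At 0.38 µM it was 1.06, with 10.8% of genes narrower and a median of 2.26. The median guide had 146 counts in treated RKO and 174 at 0.5 µM, far below the SLC43A1 guides, and low counts widen a range. These shares therefore describe the chosen gene and do not test the agreement of its guides.

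The other 6 genes lay below it. The lowest SLC43A1 guide lay 9.02 above the highest of the 24 knockout guides of the other 6 genes in RKO, on the log2 scale. The same gap was 4.88 at 0.38 µM and 3.25 at 0.5 µM, so the groups of guides did not overlap in any of the 3 libraries. SLC43A1 was chosen for its enrichment in these libraries, so the gaps describe that choice and test nothing. SLC43A1 is also among the genes called higher in each comparison below, and those calls were given by the choice. In RKO 3 of the 7 genes were called higher under drug (SLC43A1, SLC43A2 and SLC16A10) and 1 lower (SLC3A2), against 11.4% and 7.9% of all genes. At 0.38 µM 2 were called higher (SLC43A1 and SLC43A2) and 1 lower (SLC7A8), against 4.98% and 8.56%. At 0.5 µM 3 were called in each direction, against 25.1% and 30.4% of all genes, so a call at that dose was common in the whole table.

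**Figure D1:**
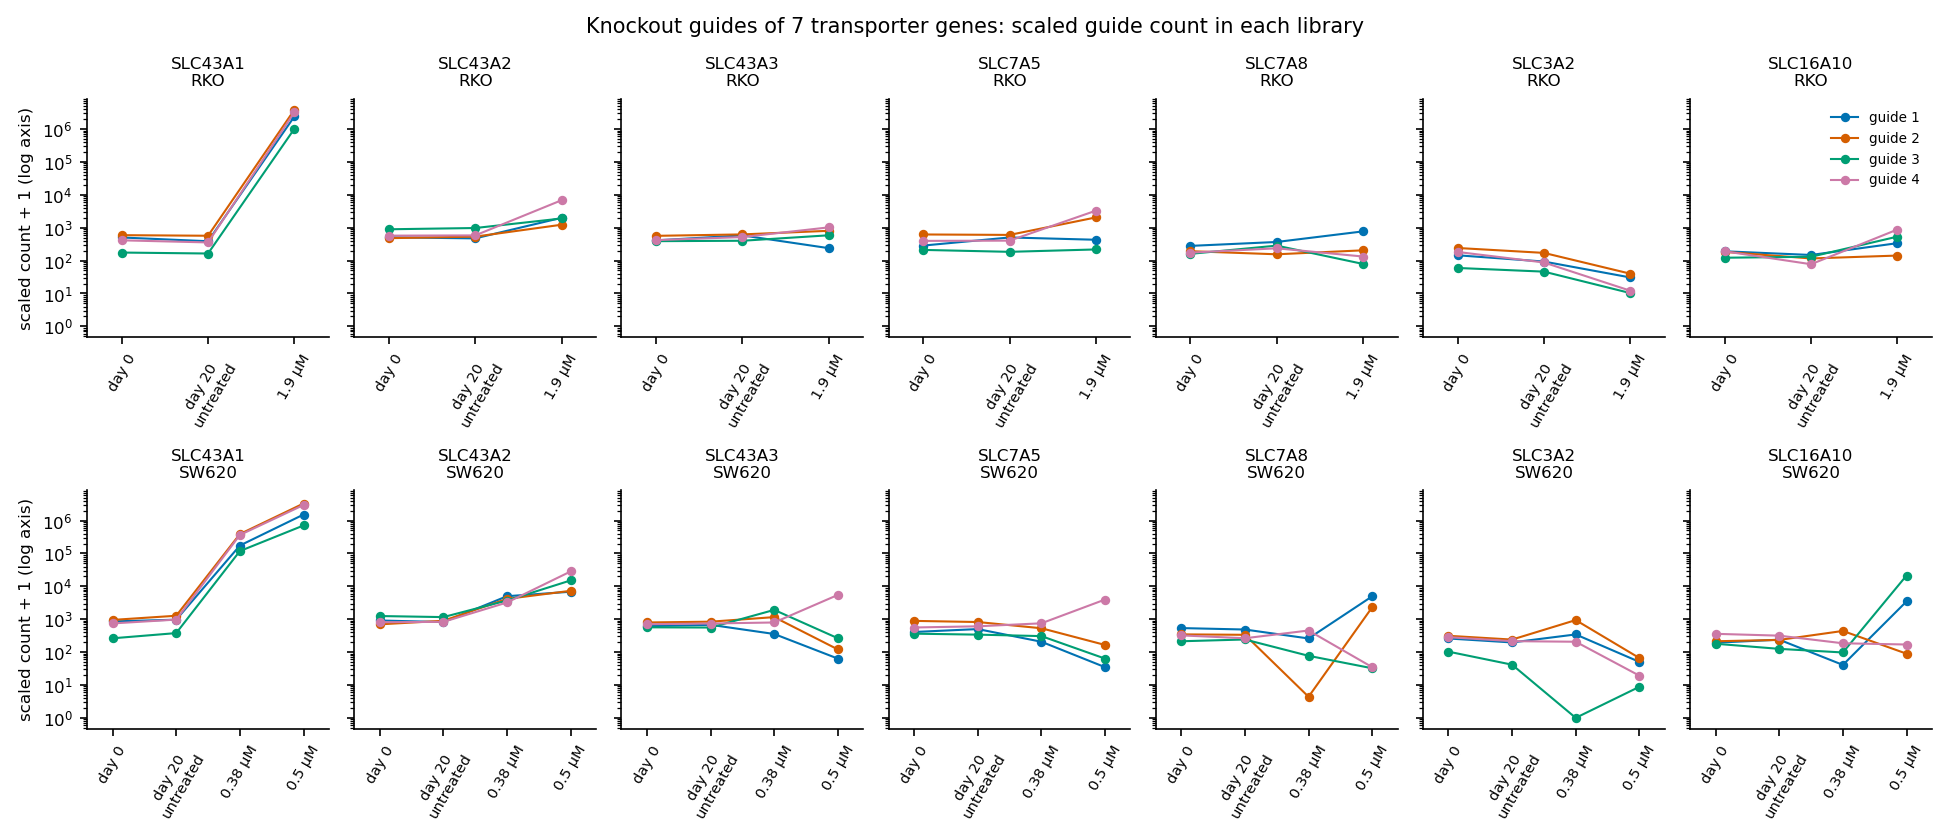
Scaled guide count plus 1 (log axis) of each of the 4 knockout guides of the 7 genes in every library of RKO (upper row) and SW620 (lower row); 1 line is 1 guide. The SLC43A1 guides climb together by log2 medians of 12.66, 8.26 and 11.09 under drug, and the SLC43A2 guides by 1.63, 2.08 and 3.38.

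SLC43A2, a paralogue of SLC43A1 and like it a carrier without a heavy chain, was the other one of the 7 genes called higher in all 3 treated knockout comparisons, as were 0.266% of the 18447 genes tested in all 3. The SW620 comparisons share their untreated library. In RKO its guides 1 to 4 had 649, 734, 1341 and 799 counts without drug and 1077, 663, 1026 and 3688 with it. After scaling these are folds of 4.23, 2.30, 1.95 and 11.8, and the log2 median was 1.63, rank 745 of 18449 genes. The raw count of 2 of these 4 guides was lower in the treated library, in which the top 1% of guides held 41.4% of all counts and the median guide had 146 counts against 372 untreated.

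In SW620 the SLC43A2 guides moved more evenly. They had 1011, 1108, 1433 and 1027 counts without drug and 5919, 4909, 4376 and 3818 at 0.38 µM. The folds were 6.13 (95% counting interval 5.73 to 6.56), 4.64 (4.34 to 4.95), 3.20 (3.01 to 3.39) and 3.89 (3.63 to 4.17), and the log2 median of 2.08 ranked 19 of 19092 genes. All 4 guides were past 2-fold, as in 0.21% of genes. At 0.5 µM the counts were 2632, 2808, 5817 and 10906, the log2 median was 3.38 (3.02 to 5.09), rank 125 of 19091, and all 4 guides were past 2-fold, as in 2.08% of genes. The SLC43A2 fold is a small part of that of SLC43A1: 4.23 against 306 at 0.38 µM, and 10.4 against 2185 at 0.5 µM.

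How far SLC43A2 stands from 0 depends on the scaling, while its distance from the median gene hardly can. A change of scaling moves all genes of a comparison together, apart from the effect of the constant added to each scaled count. At counts of this size the distance of any gene from the median gene is therefore nearly fixed by construction. The distances below describe SLC43A2 and SLC43A1 and do not test whether their values are robust. Under scaling by total counts its log2 medians were 0.32 in RKO, where it was no longer called, 1.65 at 0.38 µM and 1.30 at 0.5 µM. The median of all genes lay at -1.27, -0.38 and -2.12 under that scaling. Relative to that median SLC43A2 stood at 1.59, 2.04 and 3.41, and at 1.60, 2.04 and 3.47 under the median-ratio scaling. The same differences for SLC43A1 were 12.61, 8.22 and 11.13 under total counts and 12.63, 8.22 and 11.19 under the median ratio.

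SLC43A3, the nucleobase carrier of the family, gave no common direction. In RKO its guides had 800, 857, 549 and 712 counts without drug and 128, 433, 316 and 551 with it, a log2 median of 0.45 (-1.28 to 0.97) that was -0.85 under scaling by total counts. At 0.38 µM they had 419, 1368, 2269 and 939 counts against 835, 1039, 690 and 915 untreated, a median of 0.28 (-0.92 to 1.77), or -0.14 under total counts. At 0.5 µM the counts were 24, 46, 101 and 2105, and the gene was called lower at a median of -1.92, although guide 4 stood at 2.88.

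SLC3A2, the heavy chain, was called lower under drug in RKO, where its summed treated counts were the lowest of the 7 genes. Its sums were already the lowest of the 7 at day 0 (821) and untreated day 20 (542). Its guides had 189, 316, 77 and 239 counts at day 0, 127, 234, 62 and 119 at untreated day 20 and 16, 21, 5 and 6 under oxaliplatin. The treated fold was -1.90 on the log2 scale (-2.51 to -1.49), the 93rd lowest of 18449 genes, and all 4 guides were past 2-fold lower, as in 0.493% of genes. In SW620 untreated they had 242, 296, 50 and 265 counts, at 0.38 µM 406, 1110, 0 and 243, and at 0.5 µM 19, 25, 3 and 7. The guides split at 0.38 µM, with a median of 0.37 (-3.18 to 1.95) that was -0.05 under total counts, and the guide at 0 counts was at least 15.9-fold lower against a floor of 3 counts. At 0.5 µM the median was -1.85 and all 4 guides were below 0, from -3.24 to -1.80. That median ranked 3040 from the lowest of 19091 genes, of which 30.4% were called lower. The treated counts of 3 to 25 leave wide intervals: for guide 3 at 0.5 µM the fold was 0.193 (0.0385 to 0.598).

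Neither light chain was called lower with the heavy chain in RKO. SLC7A5 had 692, 827, 252 and 553 counts in untreated RKO and 231, 1106, 117 and 1776 under drug, a log2 median of 0.999, just short of a call (-0.23 to 3.02), and of -0.30 under total counts. In SW620 it had 619, 1015, 419 and 752 counts untreated, 243, 627, 361 and 886 at 0.38 µM and 13, 63, 24 and 1522 at 0.5 µM. Its medians there were -0.39 (-1.26 to 0.30) and -2.32 (-3.70 to 2.69), the second of them called lower with 1 guide far above 0. SLC7A8 had 504, 212, 390 and 323 counts in untreated RKO and 416, 110, 42 and 71 under drug. In SW620 it had 600, 414, 298 and 325 counts untreated, 306, 4, 90 and 535 at 0.38 µM and 1909, 888, 12 and 13 at 0.5 µM. It was called lower at 0.38 µM, at -1.25, with guides on both sides of 0 (-5.34 to 0.77). Its other medians were -0.21 (-1.80 to 1.06) in RKO and 0.00 (-2.79 to 3.34) at 0.5 µM, and both were called lower under total counts, at -1.48 and -1.92.

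SLC16A10, the aromatic uniporter, was called higher in RKO and at 0.5 µM but not at 0.38 µM. In RKO its guides had 202, 158, 178 and 105 counts without drug and 182, 76, 288 and 474 with it, a median of 1.59 with all 4 guides above 0 (0.28 to 3.44), which was 0.30 and no call under total counts. In SW620 untreated they had 294, 289, 154 and 390 counts, at 0.38 µM 47, 519, 114 and 218, and at 0.5 µM 1335, 34, 8198 and 65. The median of 1.48 at 0.5 µM is the midpoint of guides at 7.36, 3.84, -0.88 and -1.35 and turned to -0.56 under scaling by total counts. On non-targeting guides it was 0.53, again no call. At 0.38 µM the median was -0.55 (-2.44 to 0.90).

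**Figure D2:**
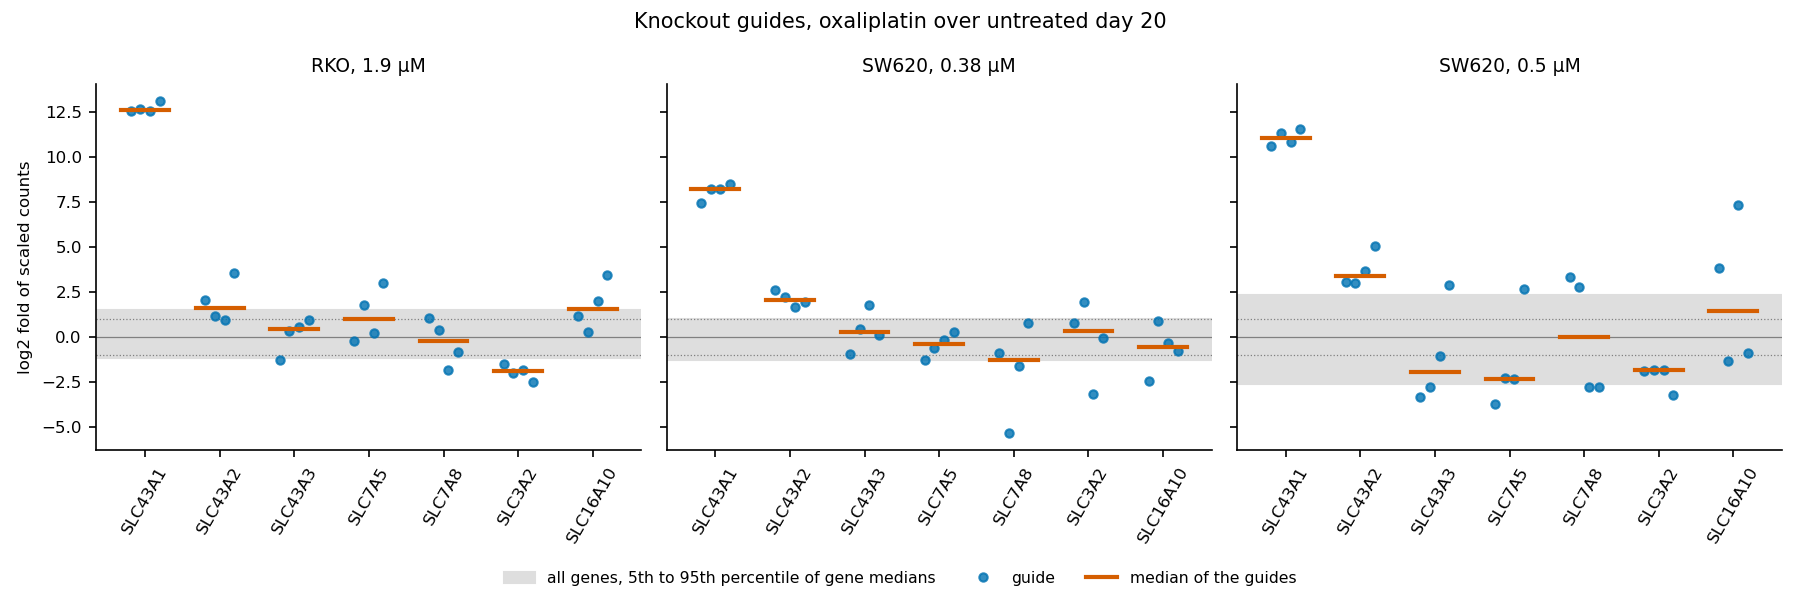
Log2 fold of each knockout guide (points) and their median (bars) for the 7 genes, oxaliplatin over untreated day 20, with the 5th to 95th percentile of the medians of all genes in grey and dotted lines at 2-fold. SLC43A1 stands at 12.66, 8.26 and 11.09, SLC43A2 above the grey band in each panel, and SLC3A2 below it in RKO alone.

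Between the SW620 doses, 0.5 over 0.38 µM, the SLC43A1 guides rose by 3.06 on the log2 scale (2.59 to 3.13). Of 17563 genes with 4 guides kept, 0.074% had a narrower range, a share that again sets very high counts beside lower ones. In all, 4 of the 7 genes were called higher and 3 lower, against 26.6% and 27.6% of all genes. Under total counts the SLC43A1 step was 1.40, and SLC43A2 went from 1.42 to -0.24 and SLC7A8 from 1.54 to 0.04.

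In the activation screens SLC43A1 and SLC43A2 were called lower under drug in all 3 comparisons, as were 1.37% of the 18750 genes tested in all 3. Both SW620 doses were set against 1 untreated library of 3647823 counts. SLC43A1 guides 1 to 3 had 389, 930 and 138 counts in untreated RKO and 0, 0 and 0 under drug, at least 9.10-fold, 21.8-fold and 3.23-fold lower against a floor of 3 counts per library. In SW620 the SLC43A1 guides 1 to 3 had 25, 75 and 62 counts untreated, 4, 0 and 0 at 0.38 µM and 0, 17 and 2 at 0.5 µM. The lines share 0 activation guide identifiers, so for every gene the same guide number need not mean the same guide in RKO and SW620. Within each line every treated count was below every untreated count. In treated RKO 59.4% of genes had raw counts apart in this way, 6 of these 7 genes among them. At 0.38 µM SLC43A1 was the 1 gene of 18766 (0.00533%), and at 0.5 µM the share was 0.41%. Summed over its guides, SLC43A1 had 4 counts at 0.38 µM, and only 1 of the 18591 genes with 3 guides had fewer. At 0.5 µM it had 19 counts and 7 genes had fewer. In treated RKO 67 of these genes (0.360%) had 0 counts on all guides, and 14 of them had had more untreated counts than SLC43A1. Its log2 medians of -5.32, -5.21 and -3.96 ranked 305, 1 and 12 from the lowest, and they rest on counts so low that the added 5 sets much of their size.

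For SLC43A2, the activation guides had 1176, 361 and 522 counts in untreated RKO and 8, 7 and 0 under drug, a median of -3.26 (-5.74 to -1.76). In SW620 its guides, numbered apart from those of RKO, had 81, 53 and 59 counts untreated, 170, 355 and 3 at 0.38 µM and 13, 87 and 11 at 0.5 µM. The 0.38 µM library has 26141162 counts in all, more than the untreated one, so guides 1 and 2 with higher raw counts were at -1.37 and 0.25 after scaling. The medians were -1.37 (-4.75 to 0.25) and -3.20 (-3.46 to -0.44), the second of them the 51st lowest of 18763 genes.

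In treated RKO such a direction was common. There 6 of the 7 genes were called lower and 0 higher, against 47.2% and 25.9% of all genes, the median of all genes was -0.80 and that of the 496 non-targeting guides 2.25. SLC16A10, like SLC43A1, had no treated counts, with guides that went from 730, 826 and 441 counts to 0, 0 and 0. They were at least 17.1-fold, 19.3-fold and 10.3-fold lower. Its median of -6.22 ranked 12 from the lowest, but with 0 treated counts its size is set by the untreated counts. SLC3A2 had 13, 4 and 14 counts under drug and 632, 632 and 953 untreated, a median of -2.20 (-3.26 to -1.72). SLC7A8 was at -3.01 (-3.94 to 0.51). SLC7A5 was called at -2.37, but its guide 1 went from 101 counts to 626 while guides 2 and 3 went from 696 and 557 to 0 and 7. SLC43A3 was the gene not called, at 0.48 (-4.32 to 1.56), but it was called lower under scaling by total counts, at -2.98, and on non-targeting guides, at -1.72.

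The SW620 activation libraries were less uneven. At 0.38 µM 5 of 7 were called lower and 0 higher, against 10.8% and 8.78% of all genes. SLC3A2 was at -1.88 (-1.88 to -0.03), SLC16A10 at -1.79 (-2.03 to 0.52) and SLC7A8 at -1.64 (-2.62 to -1.25). SLC43A3 was at -0.54 (-4.34 to 0.72) and SLC7A5 at -0.15 (-2.13 to 0.05), neither of them called. At 0.5 µM 3 were called lower (SLC43A1, SLC43A2 and SLC7A5 at -1.10) and 1 higher (SLC7A8 at 1.06), against 15.1% and 12.4% of all genes. Under total counts SLC7A8 was at 0.54, no longer called. In the reported scaling SLC3A2 was at 0.52 (-0.01 under total counts), SLC16A10 at -0.43 and SLC43A3 at 0.00, so SLC3A2, SLC7A8 and SLC16A10 were called lower at the smaller dose and not at the larger. Between these doses 6 of the 7 genes could be compared, since no SLC43A1 guide had enough counts, with 2 called higher and 2 lower against 16.7% and 17.1% of all genes.

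**Figure D3:**
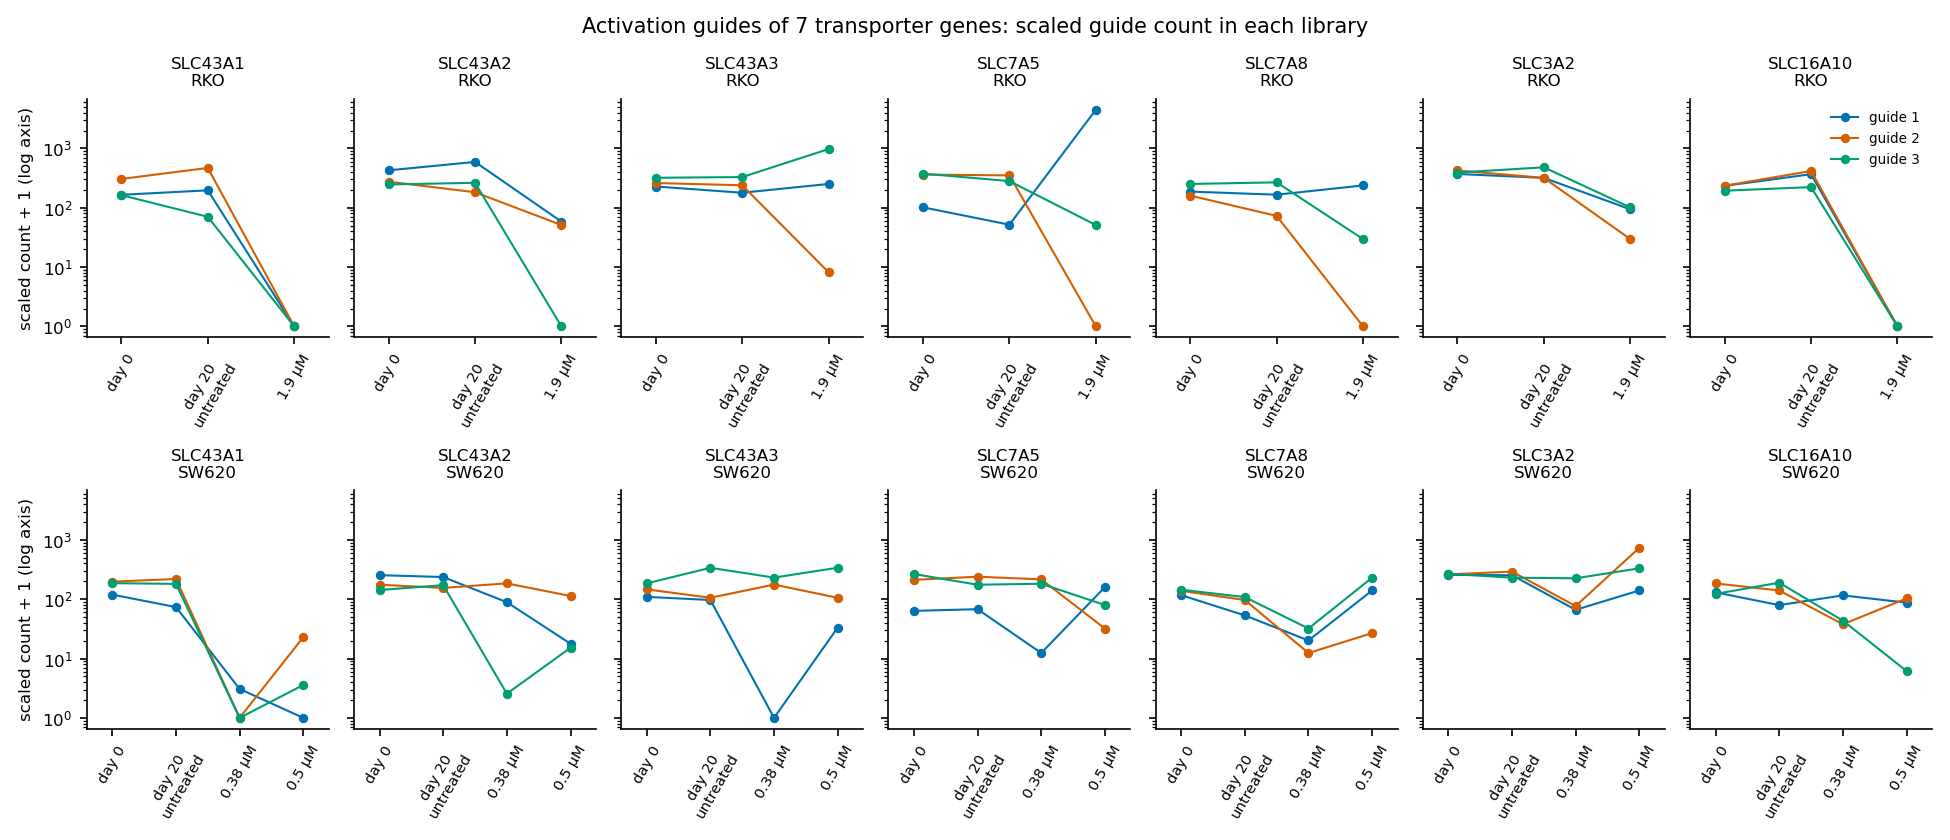
Scaled guide count plus 1 (log axis) of each of the 3 activation guides of the 7 genes in every library of RKO (upper row) and SW620 (lower row); a point at 1 is a guide with 0 counts. All 3 SLC43A1 guides end at 0 counts in treated RKO, as do the 3 SLC16A10 guides, and in SW620 the SLC43A1 guides end at 0 to 17 counts.

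**Figure D4:**
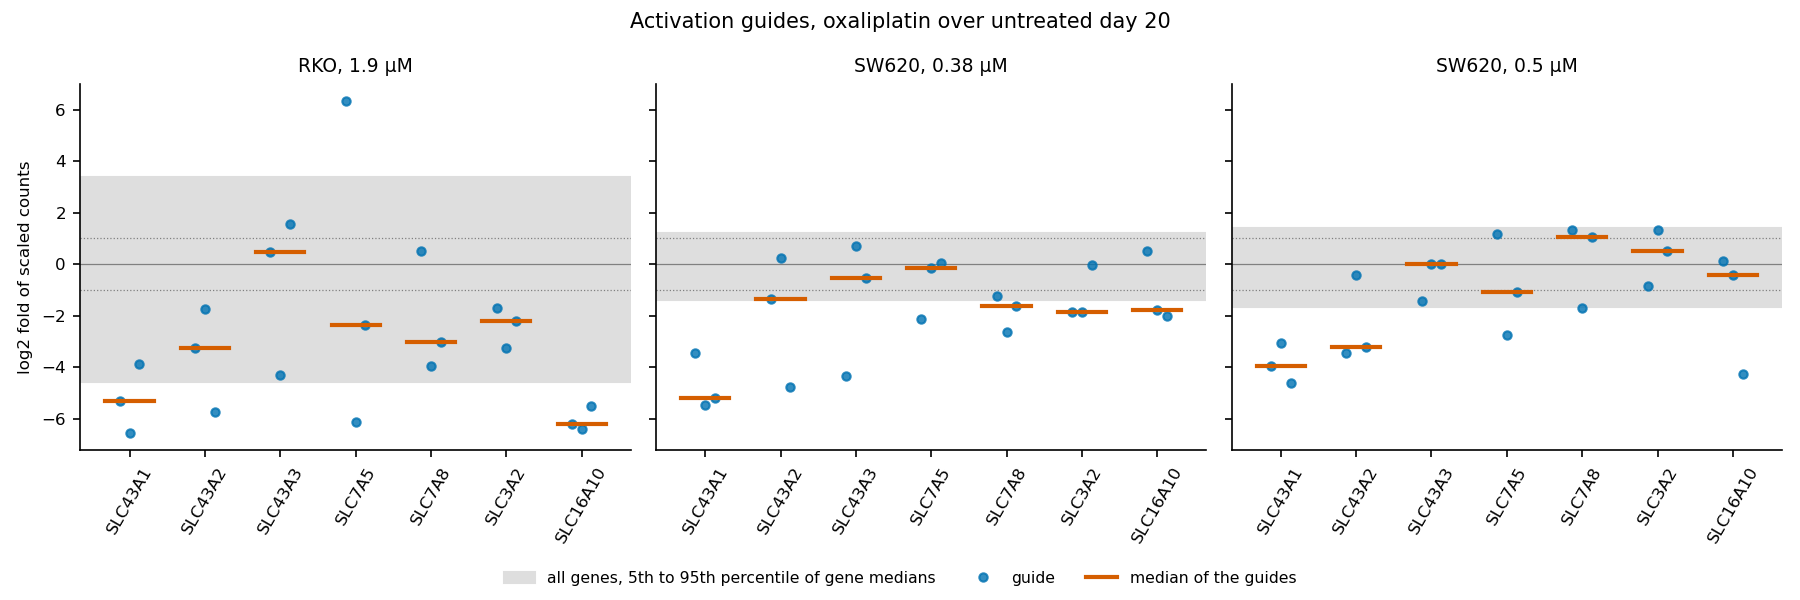
Log2 fold of each activation guide (points) and their median (bars), oxaliplatin over untreated day 20, with the 5th to 95th percentile of all gene medians in grey and dotted lines at 2-fold. SLC43A1 stands at -5.32, -5.21 and -3.96; the grey band is widest in RKO, where the median of all genes was -0.80.

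Without drug none of the 7 genes was called in the 4 comparisons of untreated day 20 with day 0. The share of all genes called lower was 11.6% in RKO knockout, 1.2% in SW620 knockout, 0.724% in RKO activation and 0.389% in SW620 activation, and 0 genes were called higher in any of them. SLC3A2 knockout guides had the lowest median among the 7 in both lines, -0.55 in RKO (-1.03 to -0.34) and -0.39 in SW620 (-1.24 to -0.38), with 0 of 4 guides above 0 in each. SLC7A5, its main partner for leucine uptake in many tumour cells, was at -0.01 and 0.01. SLC43A1 was at -0.15 in RKO (-0.37 to -0.06) and at 0.40 in SW620 (0.17 to 0.52), rank 464 of 19100 genes. The non-targeting guides had medians of 0.51 in RKO and 0.25 in SW620 in the same comparisons. Day 0 counts of the SLC43A1 guides were 660, 777, 229 and 541 in RKO and 1583, 1757, 484 and 1375 in SW620, with guide 2 highest and guide 3 lowest in both lines. SLC16A10 was at -0.50 and -0.03, SLC7A8 at 0.41 and -0.09, SLC43A2 at 0.08 and -0.03 and SLC43A3 at 0.23 and 0.07.

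In untreated activation libraries the members also stayed within 2-fold. SLC16A10 was at 0.65 in RKO with all 3 guides above 0, rank 147 of 18777 genes, and at -0.38 in SW620. SLC43A1 was at 0.25 in RKO (-1.17 to 0.61) and at -0.04 in SW620, and SLC7A8 at -0.17 and -0.50.

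**Figure D5:**
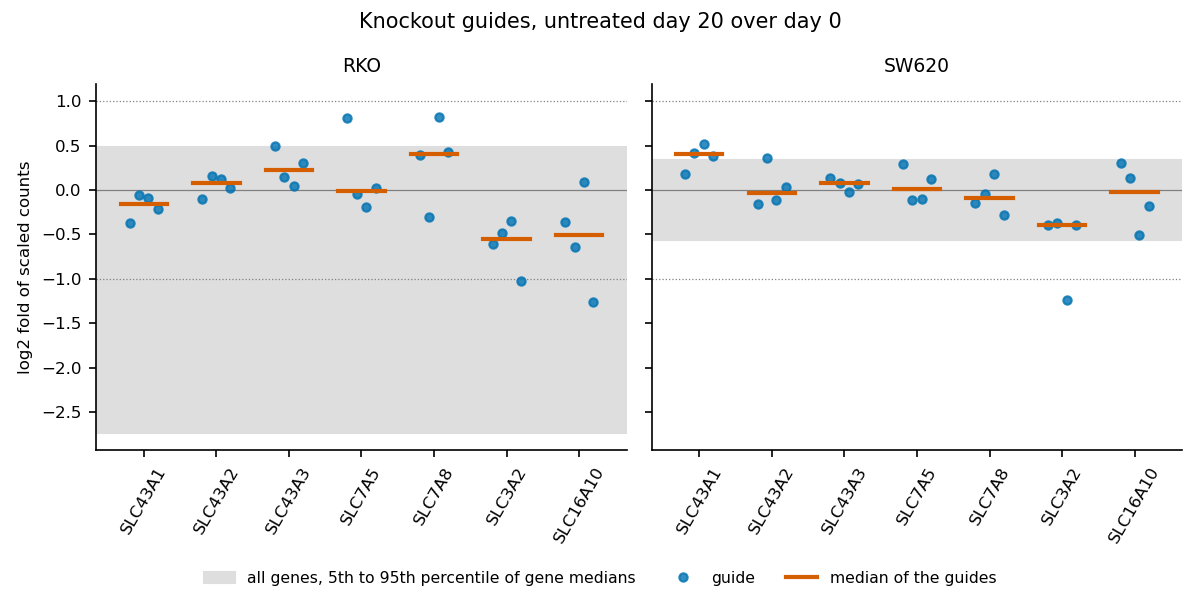
Log2 fold of each knockout guide (points) and their median (bars), untreated day 20 over day 0, with the 5th to 95th percentile of all gene medians in grey and dotted lines at 2-fold. SLC3A2 has the lowest median in both lines, -0.55 and -0.39, and SLC43A1 stands at -0.15 in RKO and 0.40 in SW620.

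Other genes of amino acid transport and use were read from 5 lists by their counts of called genes. Among 13 other carriers that accept large neutral amino acids, 2 were called higher and 0 lower in RKO knockout under drug, 0 and 2 at 0.38 µM, and 5 and 5 at 0.5 µM. Of all genes 11.4% were called higher and 7.9% lower in RKO, 4.98% and 8.56% at 0.38 µM, and 25.1% and 30.4% at 0.5 µM. The medians of that list were 0.33, -0.03 and -0.08, beside 0.03, 0.04 and -0.09 for all genes. The values farthest from 0 were SLC6A14 at 1.22 in RKO and SLC15A4, a lysosomal carrier of histidine and peptides, at -1.75 at 0.38 µM. At 0.5 µM it was SLC38A2, a sodium-coupled carrier of small neutral amino acids, at -2.93. Among the 7 other light chains and rBAT, 1 was called higher and 2 lower in RKO, 0 and 0 at 0.38 µM, and 2 and 0 at 0.5 µM, beside the same shares of all genes. SLC7A11, the cystine exchanger that also pairs with SLC3A2, was at -1.50 in RKO (-1.79 to -0.43) beside the -1.90 of SLC3A2, and at 0.38 and -0.56 in SW620.

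Of the 10 listed genes that sense leucine, arginine or uncharged tRNA, 1 was called higher and 0 lower in RKO, 4 and 0 at 0.38 µM and 5 and 1 at 0.5 µM, with list medians of 0.01, 0.13 and 1.04. Of all genes 11.4% were called higher and 7.9% lower in RKO, and 4.98% and 8.56% at 0.38 µM. At 0.5 µM, where calls were common, the shares were 25.1% and 30.4%. EIF2AK4 (GCN2), the kinase that uncharged tRNA activates, was at 3.77 (2.25 to 4.90) at 0.38 µM and 5.25 (3.56 to 7.55) at 0.5 µM, and at 0.92 (-2.04 to 2.03) in RKO. GCN1L1, its activating partner, was at 1.88, 2.03 and -0.99 in the same order, and ATF4, the transcription factor downstream, at 1.37, 1.23 and 1.79. These genes also had the lowest medians of the list without drug. EIF2AK4 and GCN1L1 were at -1.24 and -0.88 in SW620, and GCN1L1 and ATF4 at -1.11 and -0.89 in RKO. The untreated day 20 library is in both folds, so depletion without drug raises the drug fold by construction. Drug folds of these genes against day 0 are not given here. SLC43A1, SLC43A2 at 2.08 and EIF2AK4 at 3.77 were among the 4.98% of all genes called higher at 0.38 µM. SLC7A5 at -0.39 and SLC3A2 at 0.37 were not called. A link between these genes was not tested.

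The cytosolic tRNA synthetases that charge the same amino acids and the genes of branched-chain amino acid breakdown made up the last lists. All 9 synthetases were called lower in RKO without drug, where 11.6% of all genes were, led by HARS at -4.62 and MARS at -4.60, so that only 1 of them kept enough guides for the treated comparison. In SW620 without drug 2 of 9 were called lower, against 1.2% of all genes, MARS at -1.75 and VARS at -1.49. Under drug in SW620, 0 were called higher and 2 lower at 0.38 µM, and 1 and 4 at 0.5 µM, where FARSA was at -2.26. Of all genes 4.98% were called higher and 8.56% lower at 0.38 µM, and 25.1% and 30.4% at 0.5 µM. Of 10 breakdown genes tested in RKO 1 was called higher and 1 lower (DBT, at -1.54), against 11.4% and 7.9% of all genes. Of 11 in SW620, 1 was called higher at 0.38 µM (PPM1K, at 1.10) and 0 lower. At 0.5 µM 3 were called in each direction, DBT again lowest at -3.03, beside the SW620 shares of all genes given above. Without drug DLD, a subunit also of pyruvate dehydrogenase, was lowest of that list in RKO at -2.27.

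The genes whose level across the 7 knockout libraries was most like that of SLC43A1 were WDR20, NCLN, SLC4A1AP, WDR83OS and HNRNPA2B1. Likeness is Pearson's r of the median log2 scaled count, centred within each line, over the 1071 genes that spanned at least 2 on the log2 scale in both lines, and the values were 0.975, 0.966, 0.965, 0.952 and 0.952. The 7 points are libraries of 2 lines, 3 of them treated, and all genes share their depth. SLC43A1 was chosen for its rise in the treated libraries, so genes high under drug in both lines come out alike by construction. Their treated medians restate that choice and are no separate evidence of likeness. WDR20 had treated medians of 4.78 in RKO, 4.17 at 0.38 µM and 7.16 at 0.5 µM with all 4 guides above 0 in each. SLC3A2 had an r of -0.81. The other 5 members spanned less than 2 in at least 1 line and were not compared.

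Genes next to SLC43A1 in the RefSeq gene order were looked at after their values were seen. RTN4RL2, on one side, had knockout medians of 0.76, 0.69 and 1.44 under drug, with 4 of 4 guides above 0 in each comparison, where the non-targeting guides had medians of 0.25, 0.29 and 0.99. TIMM10, on the other side, was at -1.16 and -1.99 in SW620 and did not keep enough guides in treated RKO. In the activation screens RTN4RL2 was at 1.94 in RKO, 0.06 at 0.38 µM and -0.37 at 0.5 µM. TIMM10 was at -5.08, -0.33 and -2.30, against -5.32, -5.21 and -3.96 for SLC43A1. Of all genes 47.2%, 10.8% and 15.1% were called lower in these comparisons. Among other nearby genes in treated RKO, UBE2L6 was at -3.91 and SERPING1 at 2.56.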

How the data were processed

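Guide cassettes amplified from genomic DNA were sequenced in 14 libraries, 1 per condition, of 4 screens. The submitters' processing notes name cutadapt 4.0 and MAGeCK 0.5.7; roles, settings and a genome build are not given in the sources used here. The authors deposited raw counts per guide, with totals that differ between libraries, and a normalized signal that equals the count times 1 constant per library. Every column was matched to a sample by name (0 left over).

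Within a screen, counts were scaled by median-ratio size factors. A guide's log2 fold was taken after adding 5 to both scaled counts, and it was dropped where its scaled counts averaged under 20 over both libraries. A gene needed 3 guides (knockout) or 2 (activation). Folds were computed for every gene of each table and called from 2-fold. The calculation was tested on counts simulated from the untreated libraries of each screen with counting noise only. The more uneven treated libraries were not simulated. With no replicates no p-value was computed. Exact 95% intervals and the floor of 3 counts cover counting error only, as amplified reads without molecular identifiers can come from 1 molecule. Comparisons were oxaliplatin over untreated day 20, untreated day 20 over day 0, and the larger over the smaller SW620 dose.

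The 7 genes, the 5 lists and the rule for named genes were chosen with earlier results of these data known. The rule names all 7 genes, the 5 genes most like SLC43A1 and the 2 most depleted of each list without drug. It also names the member of each list whose treated knockout median was farthest from 0 in either direction. Some of these are left to the counts. Values of list genes in further comparisons were added after they were seen. Alternatives were pseudocounts of 1 and 20, scaling by total counts or non-targeting guides, no filter, the mean over guides, the deposited signal and day 0 as control. Python 3.11.15, numpy 2.4.6, pandas 2.3.3 and scipy 1.17.1 were used.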

Additional observations from a re-analysis of the deposited data

Results flagged for a closer look

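The lines lay on opposite sides of 0, with all 4 guides differing the same way, for SLC7A5 and SLC43A1 in the knockout screens. For SLC7A5 under oxaliplatin the guide-by-guide difference, RKO minus SW620, had a median of 1.71 against the 0.38 µM dose and of 3.03 against the 0.5 µM dose; doses differ between the lines, and under scaling by total counts the RKO median was -0.30. For SLC43A1 without drug the median difference was -0.57, from a value below 0 in RKO to one above 0 in SW620. With 1 library per condition neither difference was tested. The share of all genes that differ between the lines in this way was not counted, so how common such a difference is stays unknown.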

How the results depend on the processing

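No pairing of replicate cultures was possible because each condition has 1 library. Of the 83 gene medians of the 7 genes, between 73 (total-count scaling) and 83 (pseudocount 20) kept their sign under the alternatives other than day 0 as control, and of the 39 called ones between 32 and 39 stayed called. Day 0 as control applies to the 42 treated values, of which 40 kept their sign, and 27 of 28 calls were kept. SLC16A10 at 0.5 µM went from 1.48 to -0.56 and the SLC43A2 knockout step between doses from 1.42 to -0.24 under total-count scaling, which moves all genes together. SLC43A3 in treated RKO activation, not called at 0.48, was called lower at -2.98 under that scaling and at -1.72 on non-targeting guides. The number of the 7 called in untreated RKO knockout was 1 under scaling on non-targeting guides (0 otherwise), and in SW620 activation at 0.5 µM it was 2 with a pseudocount of 20 (4 in the reported setting). SLC43A1 stayed between 11.34 and 12.75 in RKO knockout, 7.83 and 8.73 at 0.38 µM and 9.01 and 11.56 at 0.5 µM over all settings run. Its activation medians moved more, between -7.62 and -3.43 in RKO, -7.50 and -3.32 at 0.38 µM and -5.66 and -2.50 at 0.5 µM, and were called lower in every setting.

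Total-count scaling raised the count of genes called in treated RKO knockout from 3555 to 11945, with 207 higher and 11738 lower (2097 and 1458 in the reported setting). At 0.38 µM it gave 201 higher and 3575 lower (950 and 1635), and at 0.5 µM 244 and 14585 (4790 and 5808). In treated activation libraries it gave 264 and 16923 (4860 and 8847), 662 and 3761 (1648 and 2027) and 725 and 5618 (2318 and 2831). Scaling on non-targeting guides gave 550 genes called in untreated SW620 knockout (230 in the reported setting). The activation values of SLC43A1 rest on 0 to 17 counts per treated guide.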
